A study of Mus musculus with 18 samples.

Results

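The comparison of squamous carcinoma with the skin in which it arose covered 293 microRNAs of the 1251 entries in the microRNA table. Its members were chosen by detection alone, as all microRNAs above the lowest value of the table in at least 6 of the 18 libraries, and 12 of these libraries entered the comparison. A further 818 entries were at the lowest value in all libraries, and 140 were detected in 1 to 5 of them. The samples came from 6 female littermates of the outbred SKH-1E Hairless strain (mice 2, 3, 7, 8, 9 and 10), which are prone to skin tumours after ultraviolet light and had all been irradiated chronically with solar simulators. From each mouse the study took nonlesional chronically exposed skin (CHR), a papilloma (PAP) and a cutaneous squamous cell carcinoma (cuSCC) of low grade, so that each sample type had n = 6 and the controls shared strain, sex and radiation with the tumours. CHR is whole skin with signs of sun damage and chronic inflammation, and was not an unirradiated control. The tumours were bulk pieces consisting mainly of tumour cells by histology, and in bulk tissue fewer cells of a type cannot be told apart from less RNA per cell.

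A microRNA is a short RNA cut from the stem of a hairpin transcript, and either the 5p or the 3p arm of the stem may be loaded into the silencing complex. It pairs with messenger RNAs mainly through its seed, bases 2 to 8, so that microRNAs with the same seed form a family with largely shared targets, while hairpins that lie close together on a chromosome are often cut from 1 transcript as a cluster. In squamous epithelium, microRNAs are known for setting the balance between proliferation and differentiation of keratinocytes.

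RefSeq held a mature sequence on GRCm38.p6 for 244 of the 293 microRNAs, 3 of them under an older name. The sequences below are those on which the results by family turn, 5′ to 3′ and with the seed in capitals. These 4 microRNAs of the miR-17 family come from both the miR-17 and the miR-106b clusters and all rose in cuSCC.
miR-17-5p: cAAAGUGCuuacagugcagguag
miR-20a-5p: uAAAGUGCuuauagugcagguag
miR-106b-5p: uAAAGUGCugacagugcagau
miR-93-5p: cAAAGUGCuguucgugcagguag
The next 4 belong to the miR-200 group, which carries 2 seeds. The first pair shares 1 seed and rose, and the second pair, with the other seed, is shown because only its first member rose.
miR-141-3p: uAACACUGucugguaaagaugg
miR-200a-3p: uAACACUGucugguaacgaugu
miR-429-3p: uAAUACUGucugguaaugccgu
miR-200c-3p: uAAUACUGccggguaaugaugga
The families of miR-125, miR-204 and miR-34b-3p fell in all tested members.
miR-125a-5p: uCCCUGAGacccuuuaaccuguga
miR-125b-5p: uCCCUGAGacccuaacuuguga
miR-351-5p: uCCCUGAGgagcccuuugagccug
miR-204-5p: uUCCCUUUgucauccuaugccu
miR-211-5p: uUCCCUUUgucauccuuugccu
miR-34b-3p: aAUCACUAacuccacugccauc
miR-34c-3p: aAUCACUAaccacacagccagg
The miR-25 family is shown because its members went different ways.
miR-25-3p: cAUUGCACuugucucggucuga
miR-92a-3p: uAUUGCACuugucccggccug
miR-92b-3p: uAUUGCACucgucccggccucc
The remaining 6 were among the largest changes and had no tested relative of the same seed.
miR-451a: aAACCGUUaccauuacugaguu
miR-138-5p: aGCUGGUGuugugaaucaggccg
miR-335-3p: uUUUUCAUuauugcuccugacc
miR-181a-2-3p: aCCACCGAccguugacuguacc
miR-1249-3p: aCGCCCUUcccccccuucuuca
miR-1843b-3p: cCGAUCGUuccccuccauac

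Levels are the log2 values as deposited, which the methods describe as reads in ppm of the usable reads. Unlogged, they summed to 2355474 to 2358287 in the 12 libraries, more than shares of the reads in ppm can add up to, so they were read as relative levels only. The distributions were near-equal in all libraries, as quantile normalization gives, so that a level gives the rank of a microRNA in its library and a rise of some is balanced by falls of others. The lowest value, 3.3219, is the log2 of 10 and was taken to mean that the microRNA was not detected. CHR libraries held 200 to 328 detected entries and cuSCC libraries 236 to 365 (exact permutation test, two-sided, p = 0.331). The lowest detected level of a library was 3.39 to 5.77 in CHR and 3.324 to 4.50 in cuSCC, so fold changes of microRNAs near this range depend on the value given to undetected entries, and the depth behind a value is unknown. The correlation of a library with the other 5 of its type across the 293 microRNAs averaged 0.958 to 0.970 in CHR and 0.933 to 0.946 in the cuSCC of mice 2, 3, 7, 8 and 9, and 0.889 in the cuSCC of mouse 10, which stood apart. Several entries held identical values in all libraries, such as miR-28a-5p and miR-28c, or miR-486-5p and miR-3107-5p, and members of a family that differ by few bases share reads in a way that the methods do not state, so values of single members are uncertain.

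Carcinoma and exposed skin differed broadly. On a linear model of the 12 libraries (limma, two-sided, Benjamini-Hochberg adjusted p under 0.05 over the 293), 59 microRNAs were higher in cuSCC (20.1%) and 65 were lower (22.2%), while 169 did not pass. The median log2 fold change was 0.11 over all 293, 1.66 over the higher and -1.48 over the lower microRNAs. Of the called microRNAs, 52 higher and 56 lower ones changed by more than 2-fold, and 42 and 43 changed in that direction in 6 of 6 mice. The 6 cuSCC samples lay above the 6 CHR samples without overlap for 29 of the 293 (9.90%), of which 28 were called, and below them for 31 (10.6%), of which 31 were called. The detection filter would not have been met without the cuSCC libraries by 7 of the 59 higher microRNAs, among them miR-19b-3p and miR-96-5p, and without the CHR libraries by 5 of the 65 lower ones, among them miR-193b-5p, miR-667-3p and miR-5107-5p, and a filter met in this way favours a difference. Without the mouse whose cuSCC stood apart, mouse 10, the counts were 65 higher and 64 lower. Without mouse 3 they were 37 higher and 40 lower.

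The largest rises combined 1 abundant pair of microRNAs with several that were barely detected in CHR. miR-451a, which is cut by Argonaute 2 in place of Dicer and is known from red blood cells, had the largest log2 fold change. Its level was 3.3219 to 7.44 in CHR (median 5.75) and 8.05 to 12.27 in cuSCC (median 8.98), a log2 fold change of 3.99 (standard error 0.73, adjusted p = 0.000747). miR-138-5p, made from hairpins on chromosomes 8 and 9, was at 3.3219 to 5.92 in CHR (median 5.10) and 7.50 to 9.19 in cuSCC (median 8.45). The groups of both microRNAs did not overlap, and miR-138-5p rose by 3.73 on the log2 scale (standard error 0.50, adjusted p = 7.75e-05). miR-335-3p, from an intron of the imprinted gene Mest, was detected in 1 of 6 CHR libraries and in 6 of 6 cuSCC libraries at 5.87 to 7.62 (median 6.71). Its log2 fold change was 3.39 (standard error 0.32, adjusted p = 8.57e-06), and 2.61 with undetected values replaced by the smallest level detected in that library (adjusted p = 0.000331).
miR-21a-5p and miR-31-5p, 2 microRNAs often raised in squamous tumours, were the most abundant among the large rises, with highest levels of 12.87 and 13.02 in CHR and lowest levels of 14.33 and 13.26 in cuSCC. They rose by 2.94 and 2.72 on the log2 scale (adjusted p = 3.73e-05 and 0.000189). Their opposite arms, miR-21a-3p and miR-31-3p, rose by 2.71 and 2.53 from near the lowest value (adjusted p = 7.75e-05 and 0.000503). miR-210-3p, which is induced by low oxygen, was at 7.25 to 8.49 in CHR and at 9.64 to 11.32 in cuSCC and rose by 2.39 (standard error 0.32, adjusted p = 7.75e-05). Of the 9 tested 5p arms of the let-7 family, 2 were higher and 0 lower, with log2 fold changes of -0.50 to 2.50 and a median of 0.47. The tested 3p arms let-7b-3p, let-7d-3p, let-7e-3p and let-7i-3p were all called lower, against 22.2% of the 293. Their log2 fold changes were -1.46, -1.05, -0.99 and -1.46, and let-7i-3p would not have met the detection filter without CHR. The level of miR-98-5p, the let-7 relative at the top of the range of the 5p arms, was 8.13 to 10.02 in cuSCC. In CHR it was 3.3219 to 7.18, and it rose by 2.50 on the log2 scale (standard error 0.60, adjusted p = 0.00501). The single undetected CHR value was that of mouse 7, whose library held no detected value under 5.77, and without this mouse miR-98-5p passed as well, as its adjusted p was 0.0204 at most with any 1 mouse left out.

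**Figure D1:**
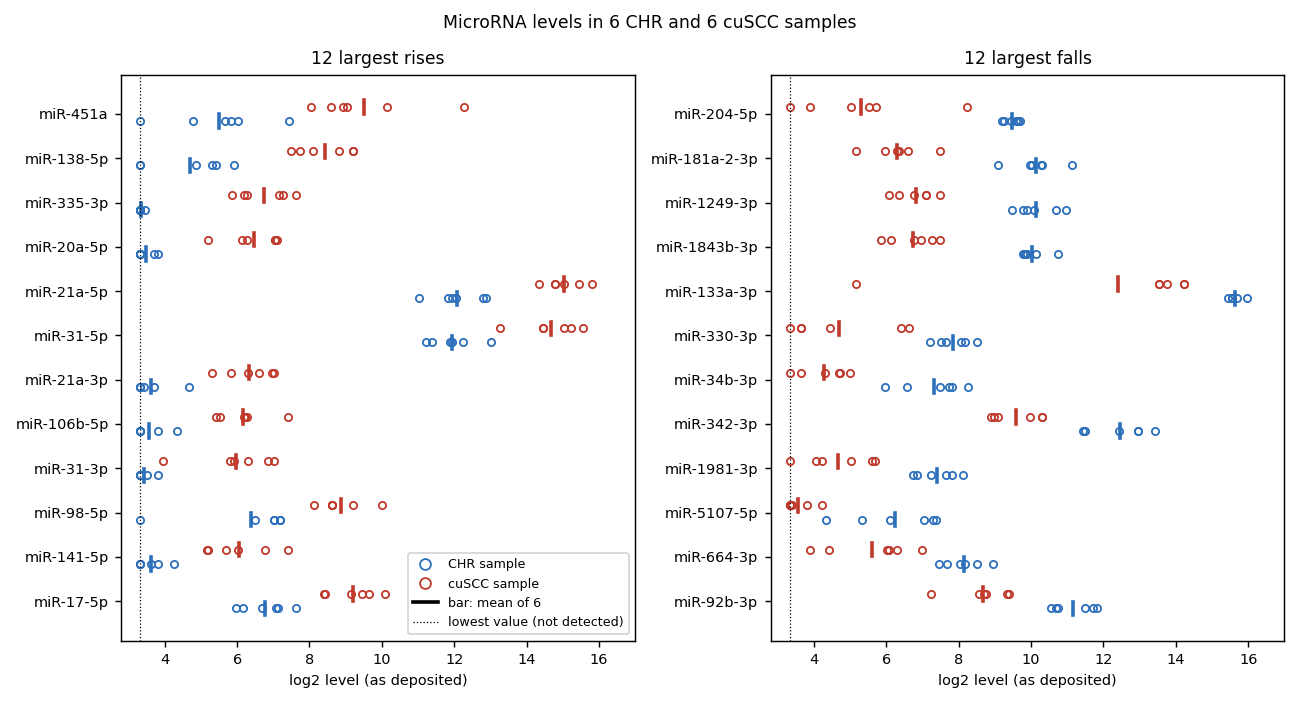
Levels of the 12 microRNAs with the largest rises (left) and the 12 with the largest falls (right) among those with adjusted p under 0.05 and no overlap between sample types. Of the falls, miR-5107-5p would not have met the detection filter without CHR. Each open circle is 1 sample (blue CHR, red cuSCC, 6 each), thick bars are means, the x axis is the log2 level, and the dotted line marks the lowest value of 3.3219; for miR-133a-3p the cuSCC sample of mouse 10 (level 5.16) lies far below the other 5.

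The largest falls began with microRNAs well above the detection limit of CHR. miR-204-5p, from an intron of Trpm3 at chr19:22750605-22750672, was at 9.19 to 9.70 in CHR (median 9.51) and at 3.3219 to 8.24 in cuSCC (median 5.28). The spread within CHR was small and that within cuSCC wide, and the log2 fold change of -4.18 was the largest fall (standard error 0.63, adjusted p = 0.000171). miR-181a-2-3p, the 3p arm of the second miR-181a hairpin, fell from 9.09 to 11.14 in CHR (median 10.14) to 5.16 to 7.48 in cuSCC (median 6.33). Its log2 fold change was -3.82 (standard error 0.40, adjusted p = 9.72e-06). miR-1249-3p and miR-1843b-3p came next, at levels close to each other. miR-1249-3p was at 9.46 to 10.96 in CHR (median 9.98) and 6.08 to 7.50 in cuSCC (median 6.94), and its log2 fold change was -3.32 (standard error 0.34, adjusted p = 8.57e-06). For miR-1843b-3p, from an intron of Cop1, the levels were 9.77 to 10.74 (median 9.85) and 5.85 to 7.50 (median 6.87), and the log2 fold change was -3.29 (standard error 0.33, adjusted p = 8.57e-06).
Among microRNAs known from lymphocytes, miR-342-3p, from an intron of Evl, fell from a median level of 12.70 to 9.53 and miR-150-5p from 12.58 to 10.11. Their log2 fold changes were -2.86 (standard error 0.42, adjusted p = 0.000152) and -2.33 (standard error 0.44, adjusted p = 0.000927), and neither overlapped between sample types. The other falls in the plot of levels were those of miR-330-3p (-3.18), miR-34b-3p (-3.02), miR-1981-3p (-2.75), miR-5107-5p (-2.68), miR-664-3p (-2.52) and miR-92b-3p (-2.50), with adjusted p between 0.0001 and 0.0012. Of these, miR-5107-5p would not have met the detection filter without the CHR libraries, which favours a fall. miR-133a-3p, a microRNA of muscle, was at 15.44 to 15.98 in CHR, and 5 of 6 cuSCC samples were at 13.55 to 14.22, only the cuSCC of mouse 10 being at 5.16. Its log2 fold change of -3.22 (standard error 1.23) had an adjusted p of 0.0476, which became 0.0637 to 0.0903 without mouse 2, 3, 7, 8 or 9 and 0.000262 without mouse 10. It also did not pass in 1 fit of all 3 sample types (adjusted p = 0.105).

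Of the 293 microRNAs, 102 fell into 38 families with at least 2 tested members, by shared seed or, for members without a sequence, by the family lists used here. In 13 families the called members were all higher, in 12 all lower, in 1 they went both ways, and in 12 no member was called. All tested members were called in the same direction in 7 families, 3 higher and 4 lower. Differences between members of a family or of a cluster were not themselves tested. Only some of the families are described below, by their members and how many were called. Beside them stand the median of 0.11 over all 293 and the backgrounds of 20.1% and 22.2%. Among those not taken up again, the miR-378 family was lower in 2 of 2 members, with a median of -1.20.

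**Figure D2:**
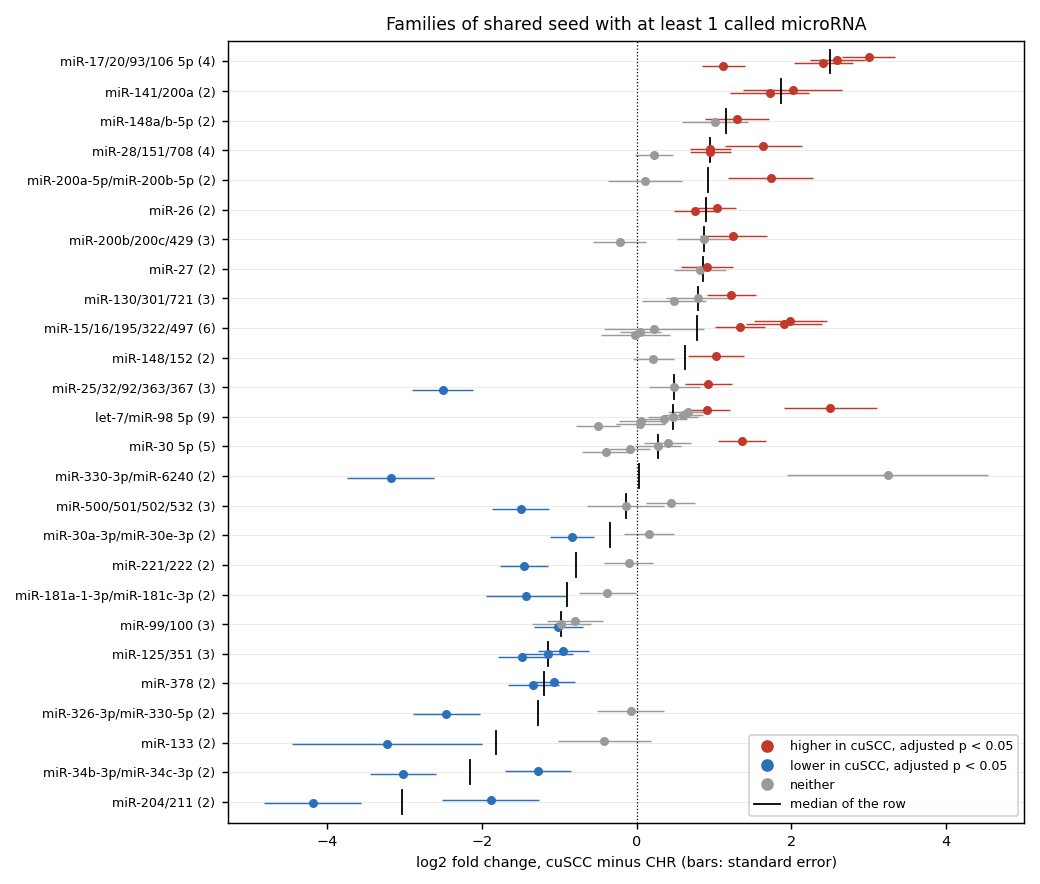
Log2 fold changes of cuSCC against CHR for members of the 26 families of shared seed with at least 1 called member, sorted by family median (black bars). Each point is 1 microRNA with its standard error, red for higher, blue for lower and grey for not called, and the number of tested members stands in parentheses; the miR-17 family lies highest with a median of 2.50 and the miR-204 family lowest with -3.03.

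The miR-17 family, whose members are best known as targets of Myc that repress cell cycle inhibitors, was higher in 4 of 4 members, with a median log2 fold change of 2.50. Its members differed in level. miR-93-5p was abundant, at 10.60 to 11.28 in CHR and 11.67 to 12.96 in cuSCC, and rose by 1.12 (standard error 0.28, adjusted p = 0.00594). The level of miR-17-5p was 5.96 to 7.64 in CHR and 8.40 to 10.09 in cuSCC, a rise of 2.41 on the log2 scale (standard error 0.38, adjusted p = 0.000232). miR-20a-5p and miR-106b-5p were detected in 2 of 6 CHR libraries each and in 6 of 6 cuSCC libraries, at 5.21 to 7.09 and 5.41 to 7.40. They rose 7.99-fold and 6.04-fold (adjusted p = 1.93e-05 and 7.77e-05), or by 2.30 and 1.90 on the log2 scale with undetected values replaced by the smallest level detected in that library (adjusted p = 0.000853 and 0.00266). For all 4 the groups did not overlap, and all 4 kept their call without any 1 mouse, with adjusted p of 0.0229 at most.
These microRNAs come from 2 clusters. The miR-17 cluster lies in exons of the long non-coding RNA Mir17hg at chr14:115043671-115044391. It held 4 tested microRNAs by matched hairpin, of which miR-17-5p, miR-20a-5p and miR-19b-3p were called higher. The mature sequence of miR-18a-3p, for which no hairpin was matched, lies in the same span. Its level was 5.77 to 8.19 in CHR and 6.68 to 10.02 in cuSCC, and it was not called. miR-19b-3p, which belongs to another family, would not have met the detection filter without cuSCC (1 of 6 CHR and 5 of 6 cuSCC libraries) and gives the cluster no support of its own. It rose by 1.67 (adjusted p = 0.0122, and 0.0521 without mouse 3). It did not pass with undetected values raised to the smallest detected level (adjusted p = 0.0876). miR-17-3p, at a median of 4.88 in CHR and 5.70 in cuSCC, did not pass (1.29, adjusted p = 0.0783), but did with mouse as a block (adjusted p = 0.0329). By name the same transcript also gives miR-92a-1-5p, which rose by 1.85 (standard error 0.42, adjusted p = 0.00367). miR-92a-3p, which has a second hairpin on the X chromosome, was among the most abundant entries at 15.98 to 16.80 in CHR and 15.98 to 17.71 in cuSCC, and its log2 fold change was 0.49 (adjusted p = 0.255). The miR-106b cluster lies in Mcm7, a helicase gene of DNA replication, at chr5:138165321-138165818. Its 3 hairpins gave 6 tested arms, of which miR-106b-5p, miR-93-5p and miR-25-3p were higher and 0 lower. miR-25-3p rose from a median level of 12.03 to 12.79 and by 0.93 on the log2 scale (adjusted p = 0.0238), and did not pass without mouse 3, 7 or 10 (adjusted p = 0.063, 0.0583 and 0.0566) or with mouse as a block (adjusted p = 0.0563).
The miR-25 family, which shares its clusters with the miR-17 family but has another seed, was the 1 family with calls in both directions. Against the rise of miR-25-3p, miR-92b-3p, from a hairpin of its own on chromosome 3, fell from 10.54 to 11.82 in CHR (median 11.12) to 7.24 to 9.38 in cuSCC (median 8.72). This was a log2 fold change of -2.50 without overlap between the sample types (standard error 0.39, adjusted p = 0.000223).

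The miR-200 group, known for holding epithelial cells in their epithelial state by repressing Zeb1 and Zeb2, was split over its seeds and clusters. With the seed of miR-141, 2 of 2 members were higher. miR-141-3p was at 6.59 to 8.67 in CHR and 7.86 to 10.48 in cuSCC and rose by 1.72 (standard error 0.51, adjusted p = 0.0165), and miR-200a-3p, at 3.3219 to 6.87 and 5.87 to 8.27, rose by 2.02 (standard error 0.64, adjusted p = 0.0227). Both groups overlapped, and neither microRNA passed without mouse 2 (adjusted p = 0.0764 and 0.072) or mouse 3 (adjusted p = 0.0889 and 0.0903). With the other seed, 1 of 3 was higher. miR-429-3p rose by 1.25 (standard error 0.43, adjusted p = 0.032), but not without mouse 2, 3 or 10 (adjusted p = 0.0986, 0.129 and 0.0547) or with mouse as a block (adjusted p = 0.0535). miR-200b-3p, at a median of 11.40 in CHR and 12.12 in cuSCC, had a log2 fold change of 0.88 (adjusted p = 0.0545), and miR-200c-3p, at 10.34 and 10.17, one of -0.21 (standard error 0.34, adjusted p = 0.614).
By position, the hairpins of miR-200a, miR-200b and miR-429 at chr4:156053905-156055750 gave 5 tested arms, of which 3 were higher and 0 lower. The hairpins of miR-141 and miR-200c lie together at chr6:124717914-124718390. There both arms of miR-141 were higher, the less abundant miR-141-5p by 2.43 (standard error 0.39, adjusted p = 0.000295) from 3.3219 to 4.26 in CHR to 5.16 to 7.40 in cuSCC, beside the value of miR-200c-3p given above.
Other microRNAs of surface epithelium moved in part. The miR-183 cluster, on chromosome 6 as well, had 2 of 4 arms higher. miR-182-5p, its most abundant member, was at 14.33 to 15.14 in CHR and 15.69 to 16.99 in cuSCC and rose by 1.59 (standard error 0.29, adjusted p = 0.000747). miR-96-5p would not have met the detection filter without cuSCC and gives the cluster no support of its own. It rose by 1.03 close to the lowest value (adjusted p = 0.0296, and 0.0962 to 0.112 without mouse 2, 3 or 8), and did not pass with undetected values raised to the smallest detected level, at 0.28. miR-205-5p, a marker of squamous epithelium at the top of the range in both tissues (median 17.84 and 18.22), had a log2 fold change of 0.21 (adjusted p = 0.568), whereas its 3p arm rose by 2.33 (standard error 0.44, adjusted p = 0.000985). miR-203-3p, which promotes keratinocyte differentiation, was at a median of 11.99 in CHR and 12.83 in cuSCC (0.50, adjusted p = 0.322).

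The miR-15 family, which represses cyclins and Bcl2, had 3 of 6 members higher and 0 lower, with a median of 0.78. miR-16-5p, the most abundant, was at 11.67 to 13.26 in CHR and 13.02 to 14.33 in cuSCC and rose by 1.34 (standard error 0.32, adjusted p = 0.00501). miR-15a-5p rose by 1.99 from a median of 5.74 to 7.63, and miR-322-5p by 1.90 from 3.91 to 6.08 (adjusted p = 0.00501 and 0.00743). miR-195a-5p and miR-497-5p, from a shared cluster on chromosome 11, had log2 fold changes of 0.22 and -0.02 (adjusted p = 0.806 and 0.972). miR-16-5p is cut from 2 clusters, in Dleu2 and in Smc4, and its value cannot be divided between them.
In the miR-26 family, whose hairpins lie within genes for small C-terminal domain phosphatases, 2 of 2 members were higher. miR-26a-5p, at 14.44 to 15.82 in CHR and 15.98 to 16.37 in cuSCC, rose by 0.76 (adjusted p = 0.0365, but 0.0771 to 0.109 without mouse 2, 3, 7 or 8, and 0.0798 with mouse as a block). miR-26b-5p rose by 1.04 (standard error 0.25, adjusted p = 0.00476), without overlap between sample types. In the miR-28 family 3 of 4 entries were higher, miR-708-5p by 1.64 (adjusted p = 0.0179) and the identical entries miR-28a-5p and miR-28c by 0.96 (adjusted p = 0.0132). None of these 3 passed without mouse 8 (adjusted p = 0.0727 for miR-708-5p and 0.062 for miR-28a-5p).

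Among the falls, the miR-125 family was lower in 3 of 3 members, with a median of -1.14. It is among the most abundant families of skin and keeps epidermal stem cells from differentiating. miR-125a-5p was at 16.59 to 17.71 in CHR (median 16.69) and 14.78 to 16.37 in cuSCC (median 15.34), and fell by 1.48 on the log2 scale without overlap (standard error 0.32, adjusted p = 0.00234). miR-351-5p, at medians of 12.37 and 11.57, had a log2 fold change of -1.14, again without overlap (standard error 0.33, adjusted p = 0.0132). miR-125b-5p changed by -0.95 (standard error 0.33, adjusted p = 0.0325), with lower values in 6 of 6 mice, but did not pass without mouse 3, 7, 8 or 10 (adjusted p = 0.0546 to 0.0889).
The cluster of miR-99b, let-7e and miR-125a overlaps Spaca6 at chr17:17830188-17830879, and 3 of its 6 arms were lower and 0 higher. miR-99b-5p, of the miR-99 family that restrains mTOR, had a log2 fold change of -1.01 from a median level of 16.06 to 14.88 (adjusted p = 0.0211). It did not pass without mouse 2, 3, 7, 8 or 10 (adjusted p = 0.0513 to 0.0779), with mouse as a block (adjusted p = 0.0563) or with the hairpin GC trend of each library removed (adjusted p = 0.577).
miR-204-5p and miR-211-5p, whose hairpins lie in introns of the channel genes Trpm3 and Trpm1, were both lower. miR-211-5p, which in skin is known from pigment cells, was at 6.35 to 8.03 in CHR (median 7.46) and 3.3219 to 7.21 in cuSCC (median 5.66). Its log2 fold change was -1.88 (standard error 0.63, adjusted p = 0.0279), and it did not pass without mouse 3, 7 or 10 (adjusted p = 0.0569 to 0.0909), with the hairpin GC trend removed (adjusted p = 0.059) or in 1 fit of all 3 sample types (adjusted p = 0.158).
The 3p arms of miR-34b and miR-34c, which lie together at chr9:51103034-51103645 and are induced by p53, were both lower, whereas miR-34c-5p and miR-34a-5p, with the miR-34 seed, did not pass. miR-34b-3p was at 5.96 to 8.25 in CHR (median 7.62) and 3.3219 to 5.01 in cuSCC (median 4.50), without overlap, and fell by 3.02 on the log2 scale (standard error 0.43, adjusted p = 0.0001). miR-34c-3p changed by -1.28 (adjusted p = 0.0288, but 0.0583 to 0.0962 without mouse 2, 3, 7 or 9, and 0.053 with undetected values raised to the smallest detected level). miR-34c-5p was at a median of 7.58 in CHR and 7.78 in cuSCC (0.32, adjusted p = 0.706), and miR-34a-5p at 5.93 and 6.30 (0.74, adjusted p = 0.247).
In the miR-181 family, which tunes signalling in lymphocytes, 0 of 4 of the 5p arms were called, with log2 fold changes of -1.06 to -0.54. miR-181a-5p was among the most abundant entries, with a median of 18.47 in CHR and 16.99 in cuSCC (adjusted p = 0.0739), and passed with mouse as a block (adjusted p = 0.0439). Of the 3p arms, miR-181a-2-3p fell as given above and miR-181c-3p changed by -1.43 (adjusted p = 0.0374, but 0.0509 to 0.128 without mouse 2, 7, 9 or 10, and 0.0611 with mouse as a block).

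The 293 microRNAs included 122 from 35 clusters, taken as hairpins within 10 kb of each other on 1 strand of GRCm38, with at least 2 hairpins represented. In 13 clusters the called members were all higher and in 9 all lower, in 3 they went both ways, and in 10 no member was called. All tested arms were called in 1 direction in 2 clusters only, miR-15a with miR-16 in Dleu2 and let-7f with miR-98 in Huwe1. In both, 1 of the 2 members is also cut from a second hairpin elsewhere.

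Calls in both directions within a cluster were found in 3 of the 35, among them the cluster near Mirg given below. In the cluster of let-7a-1, let-7f-1 and let-7d on chromosome 13, let-7f-5p rose by 0.91 and let-7d-3p had a log2 fold change of -1.05. let-7f-5p is also cut from a second hairpin elsewhere. On the X chromosome at chrX:53053255-53054349, miR-322-5p rose by 1.90 while miR-351-5p had a log2 fold change of -1.14. In other clusters a called member lay beside one that did not pass. In the miR-221 cluster at chrX:19146294-19146971, miR-222-3p was at 14.22 to 15.03 in CHR (median 14.78) and 12.44 to 14.03 in cuSCC (median 13.19) and fell by 1.45 on the log2 scale without overlap (standard error 0.31, adjusted p = 0.00233). Its neighbour miR-221-3p, which has the same seed and also represses the cell cycle inhibitor p27, was at a median of 11.40 in CHR and 11.05 in cuSCC (-0.10, adjusted p = 0.82).
The miR-143 cluster is typical of smooth muscle and fibroblasts. Its member miR-145a-5p fell from a median of 12.15 to 11.00 and changed by -1.78 (standard error 0.51, adjusted p = 0.014), while miR-143-3p, at 13.60 and 14.53, did not pass (0.45, adjusted p = 0.415). In the cluster in introns of Clcn5, miR-501-3p and miR-532-3p changed by -1.50 and -1.74 (adjusted p = 0.00532 and 0.00233) and miR-532-5p, from the same stem, by 0.44 (adjusted p = 0.278). miR-193b-3p was lower, by a log2 fold change of -1.46 from a median of 12.37 to 10.62 (adjusted p = 0.00702). Its 5p arm, miR-193b-5p, which would not have met the detection filter without CHR, had a log2 fold change of -1.23 close to the lowest value (adjusted p = 0.0365, but 0.0637 to 0.135 without mouse 2, 3, 8 or 9). The pair of miR-192 and miR-194 on chromosome 19 held 1 rise, that of miR-192-5p by 1.45 without overlap (standard error 0.28, adjusted p = 0.000985).
The imprinted domain on chromosome 12, whose microRNAs are made from the maternal copy, formed 2 clusters. Near Mirg, 2 of 11 tested arms were higher and 1 lower, with a median of 0.16, and upstream of it 1 of 7 was higher, with a median of 1.01. The higher ones were miR-411-5p (1.74, adjusted p = 0.0157), miR-410-3p (1.47, adjusted p = 0.0365) and miR-434-5p (2.31, adjusted p = 0.0167), and the lower one was miR-667-3p (-0.91, adjusted p = 0.027). The 3 higher ones did not pass without mouse 2, 3 or 7 (adjusted p = 0.0546 to 0.12), and miR-667-3p did not without mouse 2, 3, 8 or 9 (adjusted p = 0.0719 to 0.0889) or with mouse as a block (adjusted p = 0.0529).

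Both arms of a hairpin were tested in 79 pairs. The 5p arms of miR-125b, miR-181a and miR-30c are each paired with 2 different 3p arms, and miR-486 and miR-3107, with identical 5p values, lie on opposite strands of 1 locus on chromosome 8. Within each library the level of the 3p arm was subtracted from that of the 5p arm, and this arm balance was compared between cuSCC and CHR with limma over the 79 pairs. It differed in 32 (40.5%), of which 23 shifted towards the 5p arm and 9 towards the 3p arm, or in 31 of 78 with the locus of miR-486 and miR-3107 counted once. Seen arm by arm, both arms were higher in 7 pairs and both lower in 5, or in 4 with this locus counted once. Of the pairs with both arms higher, that of miR-872 has an arm that would not have met the detection filter without cuSCC. Of those with both lower, the pairs of miR-193b and miR-5107 each have an arm that would not have met it without CHR. So has let-7i, whose balance is among the 32. Opposite calls were found in 1 pair, miR-125b. In it miR-125b-5p fell as above and miR-125b-1-3p rose by 1.26 (adjusted p = 0.022, and 0.0546 to 0.0641 without mouse 2, 7 or 10), so that the 5p arm lost 2.21 against the 3p arm on the log2 scale (standard error 0.47, adjusted p = 0.00164). miR-125b-5p is also cut from a second hairpin, so that its balance against this 3p arm is not that of 1 stem alone.

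**Figure D3:**
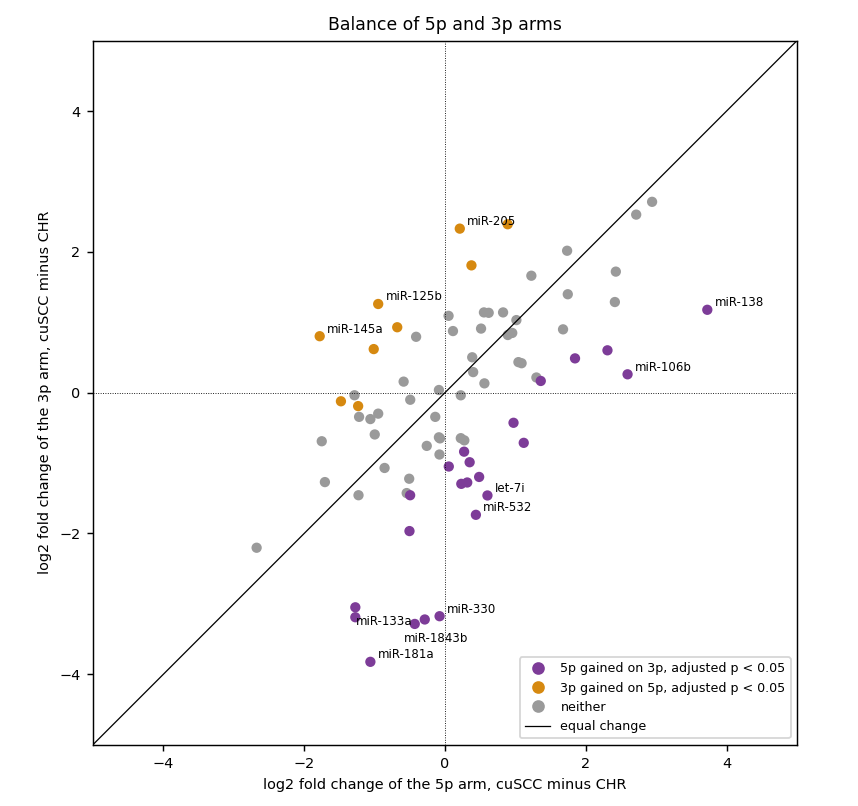
Log2 fold change of the 3p arm (y axis) against that of the 5p arm (x axis), cuSCC against CHR, for the 79 pairs with both arms tested. Purple points gained 5p over 3p and orange points 3p over 5p with adjusted p under 0.05 (23 and 9 pairs), grey points did not pass, the line marks equal change, and pairs with a shift over 2 are named.

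For miR-210 the mean 5p minus 3p was 1.39 ± 0.51 in CHR and -0.11 ± 0.67 in cuSCC (SD, n = 6 each), a change of -1.50 (limma over all pairs, standard error 0.39, adjusted p = 0.00657). For let-7d it was -0.69 ± 0.27 in CHR and 0.41 ± 0.47 in cuSCC, a change of 1.10 (adjusted p = 0.0171, but 0.0607 and 0.0545 without mouse 3 or 8). The 4 largest shifts towards the 5p arm were those of miR-330 (3.10, adjusted p = 0.00124), miR-133a (2.94, adjusted p = 0.0379), miR-1843b (2.86, adjusted p = 2.1e-05) and miR-181a against its second 3p arm (2.76, adjusted p = 0.00119). In all 4 the 3p arm fell and the 5p arm was not called. Against its first 3p arm, the balance of miR-181a changed by -0.68 (adjusted p = 0.312). The 5p arm of miR-181a and both arms of miR-133a are cut from 2 hairpins, so their balances are not those of 1 stem alone. The shift of miR-133a did not pass without mouse 2, 3 or 7 (adjusted p = 0.0716, 0.0607 and 0.0765) or with undetected values raised to the smallest detected level (adjusted p = 0.0925), and without mouse 10 it was 1.43 (adjusted p = 0.00543). In miR-106b the 5p arm rose and the 3p arm, at 0.26, did not pass, and the balance moved by 2.33 (adjusted p = 0.00119). With undetected values raised to the smallest detected level, the balance of miR-106b moved by 1.64 (adjusted p = 0.00991) and that of miR-330 by 2.57 (adjusted p = 0.00359). In miR-138, whose 5p arm is also cut from a second hairpin, the balance moved by 2.55 (adjusted p = 0.00164). Neither arm of miR-138 was detected in the CHR of mice 3 and 7, where the balance was 0. Of the 32, 28 passed with mouse as a block and 18 without any 1 mouse. In the pairs with mature sequences for both arms (64), the change correlated with the difference in GC content of the arms at r = -0.349, across pairs, which are not independent replicates. With the mature GC trend of each library removed, 13 of the 24 called pairs that have sequences for both arms passed. The shift of miR-106b was then 1.01 (adjusted p = 0.0383), and miR-25, let-7d, let-7i and miR-30a were among those that did not pass (adjusted p = 0.0792, 0.193, 0.154 and 0.0553). For the called pairs as a whole this check is void, as 8 of the 32 could not be fitted.

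GC content moved with the result over all microRNAs. The hairpins of the higher microRNAs had a median GC content of 47.6% (58 of 59 with a value), those of the lower ones 54.6% (65 of 65), and those of the others 52.0% (156 of 169). Across 279 microRNAs the log2 fold change correlated with hairpin GC content at r = -0.306, a description only, since all come from the same libraries. With the linear trend of each library against hairpin GC content removed, 43 of 58 higher and 50 of 65 lower microRNAs passed, among them the 24 microRNAs of the plot of levels. Named microRNAs that did not pass in this fit were miR-16-5p (adjusted p = 0.0504), miR-19b-3p (0.0814), miR-28c (0.105), miR-142-5p (0.059), miR-410-3p (0.183), miR-181c-3p (0.116), miR-667-3p (0.367), miR-128-3p (0.0504), miR-486-5p (0.207), and miR-211-5p and miR-99b-5p as given above, while miR-181a-5p passed (0.016). With the trend against the GC content of the mature sequence removed, 36 of the 56 higher and 32 of the 51 lower microRNAs that have a sequence passed. For the 65 lower ones as a whole the check is void, as 14 could not be fitted. Among the higher ones miR-98-5p, miR-141-3p and miR-200a-3p then had adjusted p of 0.0927, 0.0838 and 0.0857, and the log2 fold change of miR-26b-5p turned to -0.05 (adjusted p = 0.882). The part of GC content in the result was not tested.

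**Figure D4:**
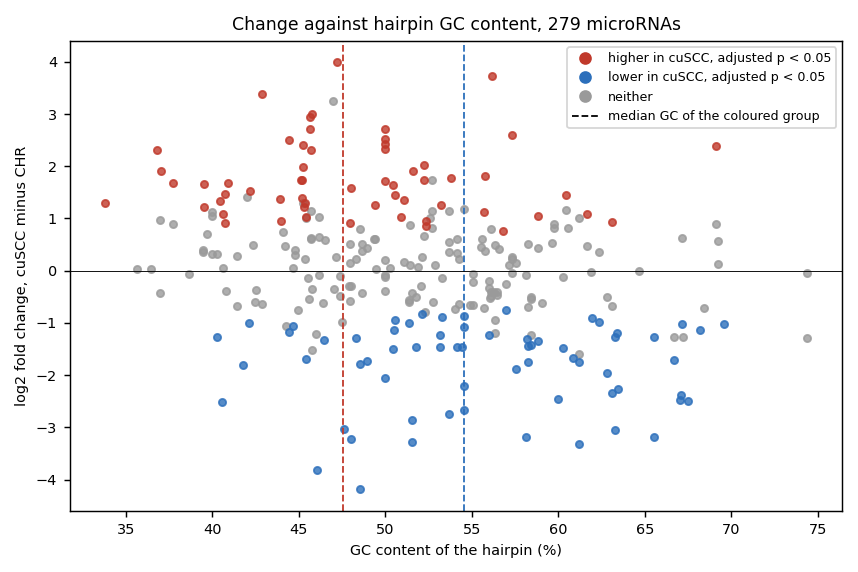
Log2 fold change of cuSCC against CHR (y axis) against the GC content of the hairpin in percent (x axis) for 279 microRNAs, coloured by call. Dashed lines mark the median GC content of the higher (red, 47.6%) and lower (blue, 54.6%) microRNAs; called microRNAs of both directions occur over most of the range.

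Markers of other cell types differed between CHR and cuSCC as well. The counts for each list stand beside 20.1% higher and 22.2% lower over all 293. Of the epithelial microRNAs 5 of 10 were higher and 0 lower, among them miR-96-5p with the limits given above. For endothelium both arms of miR-126 were higher, miR-126-3p by 1.40 without overlap (standard error 0.33, adjusted p = 0.00493) and miR-126-5p by 1.74 (adjusted p = 0.0132, and 0.0525 to 0.0677 without mouse 2, 3 or 8). Their summed level was 7.84 to 9.35 in CHR and 9.26 to 11.17 in cuSCC on the log2 scale. Of 4 tested leukocyte markers, miR-142-5p was higher (1.53, adjusted p = 0.0132, and 0.0677 without mouse 3), miR-342-3p and miR-150-5p were lower, and miR-223-3p, a marker of granulocytes, was at 8.56 to 9.88 in CHR and 6.62 to 10.26 in cuSCC. miR-155-5p was at the lowest value in all libraries. The leukocyte sum was 13.12 to 14.28 in CHR and 11.13 to 12.59 in cuSCC, without overlap. In CHR this sum was mostly that of miR-342-3p and miR-150-5p, the 2 that fell. There miR-150-5p was at 11.67 to 12.79 and miR-142-5p, which rose, at 6.98 to 9.70. The sum therefore does not describe all markers of the list.
The 3 tested microRNAs of skeletal muscle summed to 15.44 to 15.98 in CHR and 5.16 to 14.24 in cuSCC, almost wholly through miR-133a-3p. miR-133b-3p and miR-206-3p did not pass (-0.42 and -0.59, adjusted p = 0.579 and 0.507), and miR-1a-3p was at the lowest value in 17 of 18 libraries. Of 7 fibroblast and smooth muscle markers 0 were higher and 1 lower, miR-145a-5p, and the median log2 fold change of the list was 0.55. Their sum was 14.39 to 15.12 in CHR (median 14.69) and 12.69 to 15.69 in cuSCC (median 15.42). The entries miR-199a-3p and miR-199b-3p of this list hold identical values and are both counted. The 2 tested microRNAs of red blood cells went apart, as miR-451a rose and miR-486-5p, at 16.69 to 17.84 in CHR and 14.84 to 17.84 in cuSCC, changed by -1.27 (adjusted p = 0.0325). miR-486-5p did not pass without mouse 2, 3, 7, 8 or 9 (adjusted p = 0.0583 to 0.115). Of the nerve list miR-138-5p was higher and miR-128-3p lower (-0.88, adjusted p = 0.0362, but 0.0764 to 0.0962 without mouse 2, 3, 8 or 9, and 0.0624 with mouse as a block), and the liver microRNA miR-122-5p was at the lowest value in all libraries. The part of these cell types in the changes of the families was not tested.

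The papillomas of the same mice give a second tumour type beside the carcinomas. Compared with the same CHR samples, 41 of the 293 microRNAs were higher in PAP (14.0%) and 54 lower (18.4%), and both comparisons share their controls. In the direct comparison of cuSCC with PAP, 27 microRNAs were higher in cuSCC (9.22%) and 7 lower (2.39%). Of the 59 microRNAs higher in cuSCC than in CHR, 9 were also higher than in PAP, and of the 65 lower ones 5 were also lower than in PAP. The PAP mean was itself above that of CHR for 50 of the 59, and below it for 60 of the 65, which the shared CHR samples favour. The 9 included miR-21a-5p (1.79 against PAP, adjusted p = 0.0383), miR-22-3p (1.88, adjusted p = 0.0319), miR-322-5p (1.96, adjusted p = 0.0394) and miR-142-5p (2.53, adjusted p = 0.0018). Against CHR, miR-22-3p, 1 of the most abundant rises, rose by 1.81 from a median level of 14.84 to 16.69 (standard error 0.45, adjusted p = 0.006). miR-133a-3p was lower in cuSCC than in CHR but 6.82 higher than in PAP (adjusted p = 0.0394). In PAP it was at 3.3219 in mice 3, 7 and 10, and at 4.95, 6.17 and 12.44 in mice 8, 9 and 2. PAP libraries held 163 to 281 detected entries, with a lowest detected level of 3.71 to 6.83. Changes against PAP therefore depend on the value given to undetected entries. With these at the lowest detected value of their library, 80 microRNAs differed between cuSCC and PAP. The count against PAP was unstable, at 1 without mouse 3, 7 or 8, 9 without mouse 2 or mouse 9, 59 without mouse 10, and 0 in an exact permutation test per microRNA, where 75 had an unadjusted p under 0.05.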

How the data were processed

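Small RNA was sequenced from CHR, PAP and cuSCC of 6 mice. According to the study's methods, the authors trimmed adapters, discarded short and homopolymer reads, aligned the rest to miRBase with BLAST and scaled them to ppm of usable reads. The build in the submitters' processing notes is mm10. The deposited table holds log2 values with a lowest value of 3.3219, the log2 of 10, and near-equal distributions between libraries as quantile normalization gives. The log scale and the normalization were read from the values. Read totals were not used here, so depth is unknown and no counting interval can be given.

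Groups came from the sample titles. Entries detected in 6 or more of the 18 libraries were compared between cuSCC and CHR with limma 3.58.1 (R 4.3.3; lmFit and eBayes, two-sided, Benjamini-Hochberg over 293), without a block. The p-values rest on the spread of the 6 libraries within each sample type, moderated over the microRNAs. They treat the samples of a mouse as independent and concern these 6 mice only. Samples with the same number came from the same animal, so they are paired by design, and their deviations from the group means correlated at -0.28 to 0.203. Families shared bases 2 to 8 of the RefSeq mature sequence (GRCm38.p6), or were joined by a hand-written list, and clusters were GENCODE M21 hairpins (GRCm38) within 10 kb. The plot of levels shows the 12 largest changes each way among called microRNAs whose groups did not overlap. Other microRNAs were named as members of the families, clusters, arms and marker lists, or as called also against PAP, after their values were seen. Members and lists were chosen with earlier results of these data known. The fits were checked on simulated data. The GC trends, and most alternatives for the arm balance and for PAP, were added after seeing the data. Python 3.11.15 with numpy 2.4.6, pandas 2.3.3, scipy 1.17.1 and matplotlib 3.10.9 was used for summaries and plots.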

Additional observations from a re-analysis of the deposited data

Results flagged for a closer look

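In 4 of 50 groups checked, 1 sample met Dixon's criterion, the gap to its neighbour relative to the range of the group, which chance gives in about 1 of 20 groups. These were the highest CHR value of miR-335-3p (3.46, mouse 10), where the other 5 were all at the lowest value and the gap was small, the highest CHR value of miR-21a-3p (4.67, mouse 9), the lowest CHR value of miR-98-5p (3.3219, mouse 7) and the lowest cuSCC value of miR-133a-3p (5.16, mouse 10).

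Some entries outside the 293 were detected in cuSCC and in 0 CHR libraries. miR-18a-5p, named for the miR-17 cluster, was detected in 5 of 6 cuSCC libraries. Detected in 4 of 6 were miR-299a-5p, miR-299b-5p, miR-329-3p, miR-341-3p, miR-369-5p, miR-496a-3p and miR-582-5p. These were not tested.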

How the results depend on the processing

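With values under 100 ppm raised to 100 ppm, 39 microRNAs were higher and 41 lower, and with the mature GC trend removed 42 were lower, over fewer microRNAs, since 14 of the 65 lower ones could not be fitted. Leaving out 1 mouse gave 37 to 65 higher and 40 to 64 lower microRNAs, the lowest counts both without mouse 3. With mouse as a block 52 were higher and 58 lower, 28 arm balances differed, and beside the calls given in the report no other call of a named microRNA changed. Arm balance differed in 18 of the 64 pairs with sequences when the mature GC trend was removed, in 18 in a fit of all 3 sample types, and in 19 (without mouse 3) to 32 with 1 mouse left out. The 34 microRNAs that differed between cuSCC and PAP became 2 with no filter, 21 when detected in at least 12 libraries, 80 with undetected values at the lowest detected value of their library, 2 with the minimum of 100 ppm, 0 in the exact permutation test, and 1 to 59 with 1 mouse left out; limma gave 83 at an unadjusted p under 0.05. The difference in entries detected, 27.5, was 13.6 to 51.4 with 1 mouse left out. The cause of these changes was not tested. Of 1442 values of 86 of the named microRNAs under all settings, 172 lost their call, 11 gained one and 20 changed sign. The log2 fold changes that changed sign were, with the minimum of 100 ppm, miR-133b-3p 0.13, miR-206-3p 0.03, miR-497-5p 0.04, and miR-19b-3p and miR-96-5p, both -0.0. With the mature GC trend removed they were miR-195a-5p -0.26, miR-200b-3p -0.02, miR-203-3p -0.1, miR-26b-5p -0.05 and miR-667-3p 0.03, and with the hairpin GC trend removed miR-34c-5p -0.31 and miR-497-5p 0.52. With 1 mouse left out, the log2 fold change of miR-133b-3p was -0.73 to 0.24, of miR-206-3p -1.06 to 0.13 and of miR-223-3p -0.35 to 0.51, each highest without mouse 10. It was -0.3 to 0.06 for miR-221-3p (highest without mouse 3), -0.32 to 0.98 for miR-195a-5p (below 0 without mouse 2 or 3) and -0.27 to 0.36 for miR-497-5p (above 0 without mouse 9 or 10). In a fit of all 3 sample types, miR-200a-3p, miR-708-5p, miR-193b-5p, miR-410-3p, miR-411-5p, miR-128-3p and miR-181c-3p did not pass (adjusted p = 0.0564, 0.0684, 0.065, 0.126, 0.125, 0.245 and 0.0883).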
